A study of Rattus norvegicus with 35 samples.

Results

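The livers of adult rats fed myclobutanil at 500 ppm were set against livers of control rats at 0 ppm, across 31042 probe sets of a 3′ expression array, whose probes lie mostly near the 3′ end of each transcript. The comparison took the 5 arrays whose titles give myclobutanil at 500 ppm and the 7 whose titles give the control diet, 12 of the 32 arrays with values in the series. Myclobutanil is a triazole fungicide used on crops. The animals were Wistar Han IGS rats, and feeding ran from gestation day 6 up to postnatal day 92, with the controls at 0 ppm. Both groups shared strain, age at sampling and route, and no allele or further agent is named in the labels. Each array carried the RNA of 1 animal, and the design text calls the arrays of a group biological replicates. The sources used here do not say which animals were litter mates. The other arrays used below were 4 at 2000 ppm myclobutanil, 3 at 500 ppm propiconazole and 5 at 500 ppm triadimefon, 2 related triazole fungicides. The deposited value is 1 score per probe set and array, of a scale and log base that the sources used here do not state, so a difference of scores is not read as a fold change.

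Triazole fungicides block the lanosterol demethylase of fungi, the enzyme whose rat counterpart is Cyp51 in cholesterol synthesis. In the liver they are known as ligands or activators of the nuclear receptors CAR and PXR, which switch on cytochromes P450, conjugating enzymes and transporters that clear foreign compounds. The CAR targets Cyp2b1 and Cyp2b2, which phenobarbital induces in rat liver, are the usual readout of this response. On this array both are read by 1 probe set annotated to the pair, so they cannot be told apart, and it is called the Cyp2b probe set here. The pair is a close duplicate. Its promoters, 300 bases around the RefSeq gene start on build GRCr8, are shown because this probe set gave the smallest p of the comparison. Capitals mark the bases that differ between the genes within the stretch they share. Cyp2b1 lies at chr1:90645869-90646168 and Cyp2b2 at chr1:90722031-90722330, both on the plus strand.
Cyp2b1: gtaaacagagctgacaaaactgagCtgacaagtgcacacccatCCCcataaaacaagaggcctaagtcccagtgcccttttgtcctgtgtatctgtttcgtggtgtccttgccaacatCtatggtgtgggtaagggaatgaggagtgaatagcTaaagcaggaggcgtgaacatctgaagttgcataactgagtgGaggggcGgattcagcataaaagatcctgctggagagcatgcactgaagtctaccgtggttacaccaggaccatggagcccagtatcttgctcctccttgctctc
Cyp2b2: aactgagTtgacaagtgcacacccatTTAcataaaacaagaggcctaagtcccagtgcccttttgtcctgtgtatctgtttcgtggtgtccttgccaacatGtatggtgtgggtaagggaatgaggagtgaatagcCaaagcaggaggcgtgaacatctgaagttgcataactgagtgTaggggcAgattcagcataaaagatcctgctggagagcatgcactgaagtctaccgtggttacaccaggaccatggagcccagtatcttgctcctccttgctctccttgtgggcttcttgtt
Of the 283 bases that the windows share, 275 are identical (97.2%) and 8 differ, and no base is missing from either gene.

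Myclobutanil replicate 1 stood apart from the other arrays. The hybridisation controls added to each array at 4 known amounts gave a steeper scale on it: 1 doubling of these spike-in transcripts was worth 0.908 score units, against 0.491 to 0.612 on the other 4 myclobutanil arrays and 0.501 to 0.645 on the controls. The amounts were taken as those of the maker's standard mix. Its highest score, that of albumin, was 9.01, against 4.76 to 5.92 on the other 4 myclobutanil arrays and 4.84 to 6.74 on the controls. The integrity reading (3′–5′ difference), the score of the GAPDH and β-actin control probe sets at the 3′ end of the transcript minus that at the 5′ end, is large where transcripts are truncated. It was 2.45, 0.521, 0.808, 0.551 and 1.73 in myclobutanil replicates 1 to 5, against a range of 0.50 to 2.12 and a median of 1.29 in the controls. The means differed by -0.0864 between myclobutanil and control (exact permutation p = 0.843, two-sided). A GAPDH difference above 0.9 was found on myclobutanil arrays 1 and 5 and on control arrays 4 to 7. Leaving these out keeps 3 arrays a group, called the arrays within the GAPDH limit here. Controls 5 to 7 also carry animal numbers above 3000 in their titles, whereas controls 1 to 4 and all 5 myclobutanil animals carry numbers below 3000. What the number series stands for is not stated in the sources used. Over all genes 63.7% had a positive difference among animals numbered below 3000, against 47.6% over all 12 arrays. Beside each printed difference of a gene from control, the value without replicate 1 is given where it moved by over 1.5 times or changed sign.

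**Figure D1:**
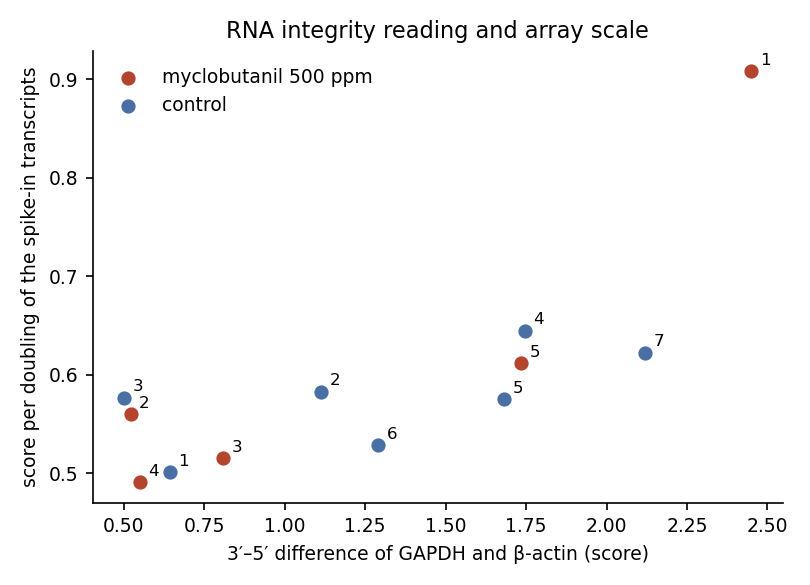
Score per doubling of the spike-in transcripts (y axis) against the 3′–5′ difference over both control genes (x axis, score units) for the 5 myclobutanil 500 ppm arrays and the 7 control arrays, each point labelled with its replicate number. Myclobutanil replicate 1 lies alone at 0.908 and 2.45, and the other 11 arrays lie between 0.491 and 0.645 on the y axis.

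Hepatocyte markers were high in both groups, and some testis transcripts were above the bottom of the scale. The titles and the labelling protocol name liver, while the extraction protocol names testis. The 17 measured hepatocyte markers averaged scores of 3.81 to 6.28 over the myclobutanil arrays and 3.88 to 5.04 over the controls, whereas the 13 measured testis germ cell markers averaged 0.090 to 0.603 and -0.114 to 0.286. Protamine 1 (Prm1), which packs sperm DNA, had scores of 1.48, 2.42, 0.960, 1.5 and 2.68 on the myclobutanil arrays and of -0.271 to 1.71 on the controls (median 1.32). Odf1, a protein of the sperm tail, had scores of 0.217, 1.21, 0.336, 0.410 and 0.720 on the myclobutanil arrays, against -0.142 to 0.587 on the controls (median 0.033). Both were highest on myclobutanil arrays 2 and 5, and the groups overlapped. The same 2 arrays were the highest for Tnp1 (1.34 and 1.21), Smcp (1.04 and 0.672), Tnp2 (0.624 and 0.412), Ldhc (0.453 and 0.117) and Akap4 (0.201 and 0.042), each above every control on both arrays. The Prm1 difference of 0.95 ± 0.487 (SE) was the second largest positive one of the comparison, and it was 0.46 within the GAPDH limit and 0.60 among animals below 3000. 12 of the 13 markers had a higher mean at myclobutanil, with a median difference of 0.12, while 47.6% of all genes had a higher mean. Acrv1 (-0.370 to -0.229) and Hspa1l (-0.490 to -0.291) stayed below 0 on the myclobutanil arrays. The part of testis RNA in the results below was not tested. In a bulk sample, fewer cells of a type and less RNA per cell cannot be told apart.

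No probe set passed in the comparison of myclobutanil with control (limma, Benjamini-Hochberg adjusted p under 0.05; 0 called of 31042, 0%). An unadjusted limma p under 0.05 was found for 1281 probe sets, 4.13% of those tested. Over the 14217 genes, each read by its brightest probe set, 237 (1.67%) were higher and 288 (2.03%) lower at that unadjusted level. These shares, with the 47.6% of genes that had a positive difference, stand as background to the list counts below. The adjusted p of each gene described below was 0.734 or more against control. No gene is therefore called changed, and single genes are described by their size and their values on each array. The median standard error of a difference was 0.0395 over all probe sets, and 0.127 over those with a mean score above 1.

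**Figure D2:**
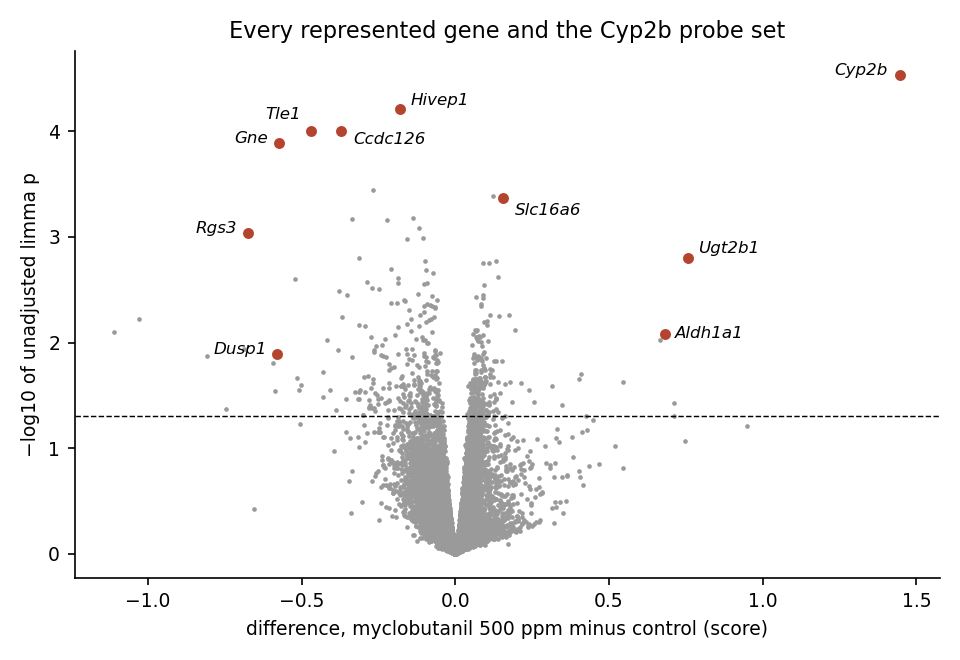
Difference of mean scores, myclobutanil 500 ppm minus control (x axis), against −log10 of the unadjusted limma p (y axis), with 1 point per represented gene and 1 for the Cyp2b probe set. The dashed line is the unadjusted p of 0.05, and Cyp2b lies farthest to the right at 1.45.

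The Cyp2b probe set had the smallest p and the largest difference of the 31042. Its scores were 5.21, 3.46, 3.43, 3.36 and 4.34 on myclobutanil arrays 1 to 5, against 2.14 to 3.03 on the 7 controls (median 2.60). All 5 myclobutanil arrays lay above every control. The means were 3.96 ± 0.802 at myclobutanil (SD, n = 5) and 2.51 ± 0.320 in controls (SD, n = 7), and the difference was 1.45 ± 0.289 (SE), with an interval of 0.86 to 2.04 (95%, not adjusted over probe sets). It missed the threshold over all probe sets (limma adjusted p = 0.734). An exact permutation test of this probe set alone, two-sided, gave p = 0.00253, the smallest that 792 arrangements of 5 and 7 arrays allow. It was run on a probe set already known to separate the groups and is no independent support. After quantile normalisation, which gives every array the same distribution of scores, the myclobutanil arrays lay at 3.72, 3.55, 3.85, 3.79 and 4.05, against 1.94 to 2.77 in controls, and the difference of 1.36 passed (limma adjusted p = 0.0035). On the scale of the spike-in transcripts it was 2.12 doublings (95% interval 1.34 to 2.90, limma adjusted p = 0.0976). The pass after quantile normalisation was lost when array weights were added (1.35, limma adjusted p = 0.271) and within the GAPDH limit (1.21, limma adjusted p = 0.327). On the deposited scores the difference was 1.14 without myclobutanil replicate 1 and 0.94 within the GAPDH limit.

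**Figure D3:**
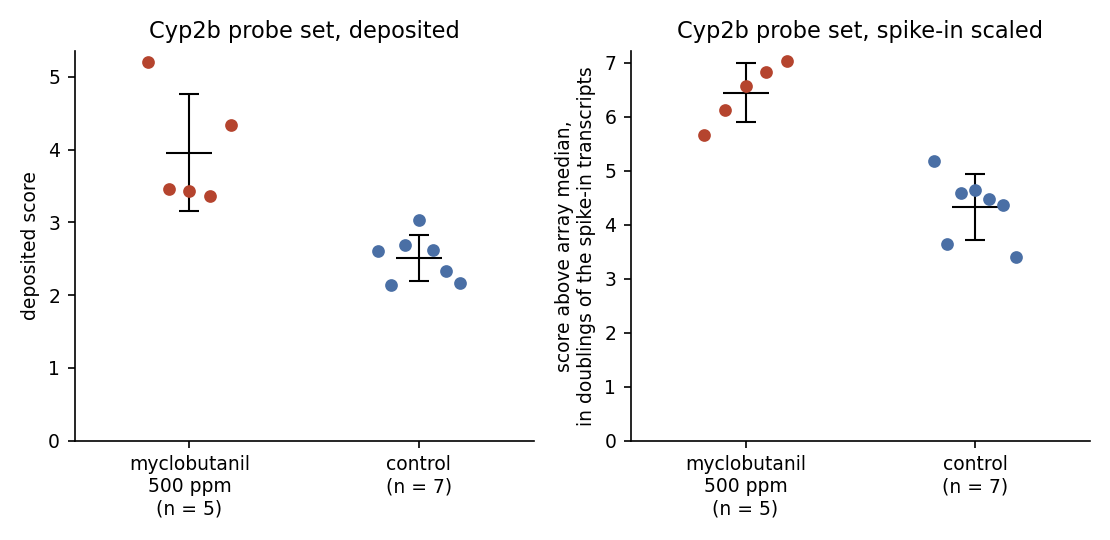
Scores of the Cyp2b probe set by array for myclobutanil 500 ppm (left of each panel, n = 5) and control (right, n = 7), as deposited and after scaling by the spike-in transcripts; points are arrays, the horizontal mark is the mean and the whiskers are 1 SD. The groups do not overlap in either panel, and myclobutanil replicate 1 is the highest array as deposited and the lowest myclobutanil array after scaling.

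The neighbours of this pair in the Cyp2b family did not follow it. Cyp2b3, a constitutive member of the family in rat liver, had scores of 6.33, 4.11, 3.59, 3.6 and 4.25 at myclobutanil, against 3.74 to 4.60 in controls (median 4.14). Replicate 1 lay above every control and 2 other arrays lay below every control, and the difference without replicate 1 was -0.26. Cyp2b12 and Cyp2b21 had scores below 0 on all 12 arrays.

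Among the phase I genes of the CAR and PXR response, the aldehyde dehydrogenase Aldh1a1 came next. It had scores of 3.16, 2.53, 2.14, 1.98 and 2.80 at myclobutanil, against 0.888 to 2.09 in controls (median 2.00). 4 of the 5 myclobutanil arrays lay above every control, and control 7 was far below the other controls. The difference was 0.68 ± 0.239 (SE), 0.52 without replicate 1 and 0.27 within the GAPDH limit, and replicates 1 and 5 were its highest arrays. Alas1, the rate-limiting enzyme of heme synthesis that supplies cytochromes P450, had scores of 3.56, 2.65, 2.57, 2.67 and 3.32, against 2.37 to 2.74 in controls (median 2.59). Its difference of 0.40 ± 0.165 (SE) came mainly from replicates 1 and 5, which also had the highest 3′–5′ differences of their group. Control arrays 4 to 7, over the GAPDH limit too, had Alas1 scores of 2.42 to 2.74. The difference of Alas1 was 0.42 with the 3′–5′ difference as covariate, 0.25 without replicate 1 and 0.11 within the GAPDH limit. Its cause was not tested. The receptors themselves, Nr1i3 (CAR) and Nr1i2 (PXR), differed by 0.16 ± 0.113 and 0.17 ± 0.116, and Nr1i2 by 0.28 without replicate 1 and 0.066 among animals below 3000.

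The Cyp3a enzymes, the usual readout of PXR, were highest on replicate 1. Cyp3a23-3a1 had scores of 6.82, 3.97, 3.81, 3.72 and 4.60 at myclobutanil, against 3.70 to 5.01 in controls (median 4.14). Its difference was 0.32 ± 0.346 (SE), and -0.24 without replicate 1. Cyp3a2, Cyp3a18 and Cyp2c6v1 showed the same order of arrays, with differences of 0.36, 0.40 and 0.42 that became -0.20, -0.04 and -0.11. The epoxide hydrolase Ephx1 differed by 0.35, by 0.32 without replicate 1, by 0.091 within the GAPDH limit and by 0.20 among animals below 3000. It had scores of 3.65, 4.07, 2.97, 3.48 and 3.45 against 2.89 to 3.55 in controls (median 3.13). In the list of 18 measured phase I genes of CAR and PXR, 18 had a positive difference, with a median of 0.21, while 47.6% of all genes were positive and their median was -0.003. 2 of the 18, Aldh1a1 and Alas1, were higher at an unadjusted p under 0.05, next to 1.67% of all genes, and none was lower. Without replicate 1 the list had 8 of 18 positive and a median of -0.025, while 33.5% of all genes were then positive. After quantile normalisation it had 17 of 18 and 0.15 (54.2% of all genes), and within the GAPDH limit 7 of 18 and -0.071 (40.8% of all genes). At an unadjusted p under 0.05, 2 were higher without replicate 1, next to 1.36% of all genes. After quantile normalisation 5 were higher, next to 2.69%. Within the GAPDH limit 0 were higher and 1 lower, next to 1.98% and 8.41% of all genes.

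Among the conjugating enzymes, Ugt2b1, a glucuronosyltransferase of steroids and drugs, separated best. It had scores of 4.43, 3.36, 2.50, 2.73 and 3.45 at myclobutanil, against 2.28 to 2.78 in controls (median 2.58). 3 of 5 myclobutanil arrays lay above every control. The difference was 0.76 ± 0.215 (SE), 0.96 doublings of the spike-in transcripts (95% interval 0.33 to 1.59), 0.47 without replicate 1 and 0.40 within the GAPDH limit. The glutathione transferase Gstm2 had scores of 3.22, 3.48, 3.29, 3.24 and 3.13, against 2.33 to 3.48 in controls (median 2.77). Its myclobutanil arrays lay within the range of the controls, with a difference of 0.38 ± 0.207. It was 0.028 within the GAPDH limit and 0.20 among animals below 3000. Of 30 measured phase II genes, 20 were positive, next to 47.6% of all genes, with a median difference of 0.085. Ugt2b1 alone was higher at an unadjusted p under 0.05, next to 1.67% of all genes, and none was lower. Without replicate 1, 10 of 30 were positive, next to 33.5% of all genes.

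Targets of the dioxin receptor AhR did not separate the groups. Cyp1a1, its most inducible target, had scores of -0.014, -0.149, 0.589, 0.017 and 0.730 at myclobutanil, against -0.112 to 0.342 in controls (median 0.020). Arrays 3 and 5 lay above every control, and the difference was 0.18 ± 0.338 (SE), and 0.094 within the GAPDH limit. Of 9 measured AhR targets 0 had an unadjusted limma p under 0.05 in either direction, and of 21 NRF2 targets, genes of the antioxidant response, likewise 0. The NRF2 target Gsta3 had a difference of 0.31 ± 0.205, 0.18 without replicate 1 and 0.14 within the GAPDH limit. Srxn1 differed by 0.10 ± 0.0741, by 0.035 without replicate 1 and by 0.24 among animals below 3000. Ces2c, a carboxylesterase, had scores of 1.60, 1.36, 1.32, 1.30 and 1.35, against 0.936 to 1.40 in controls (median 1.18). Its difference was 0.21 ± 0.153, and 0.10 within the GAPDH limit. Abcc3, an export pump for conjugates, had scores of -0.055 to 0.006, of which 4 of 5 lay above every control at -0.081 to -0.016, a difference of 0.045 ± 0.0748 at the bottom of the scale, and of 0.008 within the GAPDH limit. Por, which passes electrons to all microsomal cytochromes P450, differed by 0.06 ± 0.156 and by -0.083 without replicate 1. Among 18 measured drug transporters 9 were positive and 0 had an unadjusted limma p under 0.05. The uptake carriers Slco1b2 and Slco1a4 differed by 0.19 ± 0.115 and 0.36 ± 0.263, by 0.072 and -0.022 without replicate 1, and by 0.11 and 0.013 within the GAPDH limit.

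The genes of smallest p after Cyp2b were lower at myclobutanil. Gne, which makes the sialic acid precursor of liver glycoproteins, had scores of 1.35, 1.54, 1.44, 1.15 and 1.09, against 1.54 to 2.09 in controls (median 2.04). 4 of 5 myclobutanil arrays lay below every control. The difference was -0.57 ± 0.129 (SE). On the spike-in scale it was -1.10 doublings, with a 95% interval of -1.66 to -0.53. Without replicate 1 it was -0.58.

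Tle1, a transcriptional corepressor of the Groucho family, had scores of 1.11, 0.454, 0.660, 0.289 and 0.787, against 0.885 to 1.30 in controls (median 1.10). Replicate 1 lay among the controls and the other 4 below all of them. Its difference of -0.47 ± 0.103 (SE) became -0.58 without replicate 1, and that value passed (limma adjusted p = 0.0206). Ccdc126 had scores of 0.772, 0.455, 0.544, 0.390 and 0.537, against 0.691 to 1.23 in controls (median 0.859), a difference of -0.37 ± 0.0817. Klf10, a transcription factor induced by TGF-β, had scores of 0.464, 0.236, 0.767, 0.445 and 0.749, against 0.754 to 0.963 in controls (median 0.856). In both genes 4 of 5 myclobutanil arrays lay below every control. Rgs3, a regulator of G protein signalling, had scores of 1.68, 0.980, 0.726, 0.714 and 0.912, against 0.849 to 2.05 in controls (median 1.88). Myclobutanil replicate 1 and control replicate 7 each lay apart from their own group in this gene. The other 2 probe sets of Rgs3, near 0 in score, differed by 0.017 and -0.001, and by 0.005 and 0.002 without replicate 1.

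The remaining genes of the 10 smallest p values in each direction were at the low end of the scale. On the lower side these were Hivep1 (difference -0.18), C2h4orf46 (-0.27), the signalling kinase Ripk2 (-0.14), the vitamin B12 carrier receptor Cd320 (-0.22) and the mitochondrial tryptophan ligase Wars2 (-0.12, and -0.067 among animals below 3000). On the higher side they were C1h11orf24 (0.12), Slc16a6 (0.15), Tmem70 (0.13, and 0.065 within the GAPDH limit), Cpt1c (0.091), Birc7 (0.11), Sp3 (0.14), Tyr (0.094), Robo1 (0.090) and Kank3 (0.068), beside Ugt2b1. Slc16a6, a ketone body transporter in zebrafish liver, had scores of 0.044, 0.144, 0.153, 0.189 and 0.18, against -0.084 to 0.034 in controls (median -0.002). All 5 lay above every control. Its second probe set differed by 0.20 ± 0.0975 in the same direction, and by 0.125 within the GAPDH limit. That probe set had scores of 0.149, -0.241, -0.215, -0.017 and 0.490, against -0.375 to -0.021 in controls, with 3 of 5 above every control.

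**Figure D4:**
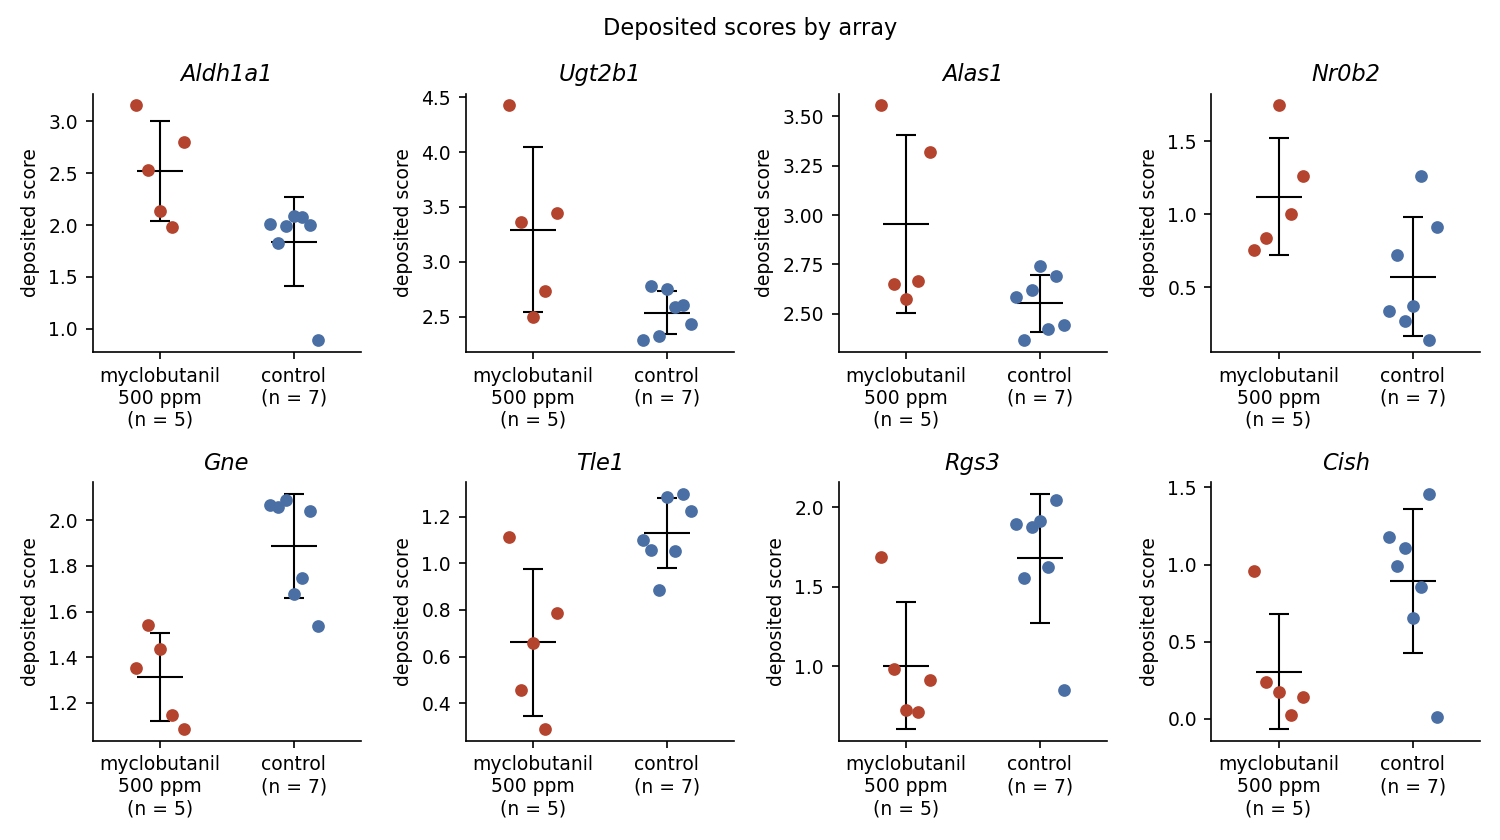
Deposited scores by array of 8 genes for myclobutanil 500 ppm (left, n = 5) and control (right, n = 7); points are arrays in replicate order from left to right, the horizontal mark is the mean and the whiskers are 1 SD, and the y axes do not start at 0. Replicate 1 at the left of the myclobutanil points is the highest of its group in Aldh1a1, Ugt2b1, Alas1, Tle1, Rgs3 and Cish, and control replicate 7 at the far right is the lowest control in Aldh1a1, Gne, Rgs3 and Cish.

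Groups without overlap were rare. Among the 14217 genes, 5 (0.0352%) had all 5 myclobutanil arrays above every control and 4 (0.0281%) had all 5 below. With 792 arrangements of 5 and 7 arrays, some of 14217 genes separate fully without any effect of treatment. The counts are therefore not read as a result. These genes were singled out after their values were seen. The higher ones were Slc16a6, Pitx1, MAST1, Kif3a and Zfp763. Apart from Slc16a6 they differed by 0.055 to 0.073, at mean scores below 0. The lower ones were Pc, RT1-Bb, Dcaf6 and S100a8. Pyruvate carboxylase (Pc), the entry enzyme of gluconeogenesis, had scores of 1.58, 1.63, 1.48, 1.57 and 1.67, against 1.69 to 2.01 in controls (median 1.87), a difference of -0.27 ± 0.0988 (SE). RT1-Bb, a class II histocompatibility gene of antigen-presenting cells, had scores of -0.213, 0.590, -0.274, -0.325 and 0.453, against 0.662 to 1.25 in controls (median 0.867). The myclobutanil arrays fell in 2 tiers, with replicates 2 and 5 near the controls and the other 3 below 0. Scores below 0 were also found in the other groups at 500 ppm. They ran from -0.343 to 1.041 at propiconazole and from -0.379 to 1.515 at triadimefon. At 2000 ppm myclobutanil the range was 0.579 to 1.061. The 15 measured Kupffer cell and macrophage markers averaged 1.11 to 1.59 on the myclobutanil arrays and 1.05 to 1.51 on the controls.

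In cholesterol synthesis no step stood apart. Cyp51, the counterpart of the fungicide's target, had scores of 4.70, 2.75, 2.59, 2.52 and 3.19 at myclobutanil, against 2.67 to 3.74 in controls (median 3.21). Replicate 1 lay above every control and replicates 3 and 4 below. The difference was 0.029 ± 0.246 (SE), -0.36 without replicate 1 and -0.25 within the GAPDH limit. Mvd, an enzyme of the mevalonate pathway, had scores of 0.521, 0.402, 0.362, 0.454 and 0.431, against 0.417 to 0.750 in controls (median 0.607), a difference of -0.15 ± 0.0488 (SE), and of -0.079 within the GAPDH limit. Of 17 measured genes of the pathway 11 were negative and 6 positive, next to 47.6% of all genes positive, with a median of -0.011. Mvd alone was lower at an unadjusted p under 0.05, next to 2.03% of all genes. Without replicate 1 all 17 were negative, with a median of -0.15, while 33.5% of all genes were then positive. Stard4, a carrier of cholesterol within the cell, differed by -0.28 ± 0.131, by -0.45 without replicate 1 and by -0.18 among animals below 3000. Scap, the escort of SREBP, differed by -0.13 ± 0.0758, and by -0.073 within the GAPDH limit.

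In bile acid metabolism 2 genes with opposite roles were both higher in mean. Nr0b2 (SHP), a repressor of bile acid synthesis, had scores of 0.754, 0.842, 1.75, 1.0 and 1.26 at myclobutanil, against 0.137 to 1.27 in controls (median 0.371). The difference was 0.55 ± 0.228 (SE) and 0.64 without replicate 1. Cyp7a1, the rate-limiting enzyme of the main route, had scores of 1.23, 1.77, 1.58, 1.46 and 2.08, against 0.076 to 2.25 in controls (median 1.25), and all 5 arrays lay within that range. Cyp7b1, of the alternative route, had scores of -0.184, -0.333, -0.289, -0.288 and -0.193, against -0.267 to 0.041 in controls (median -0.155), below every control on 3 of 5 arrays. Its difference was -0.14, -0.083 within the GAPDH limit and -0.085 among animals below 3000. Of 16 measured genes of the list 12 were positive, next to 47.6% of all genes. At an unadjusted p under 0.05 there was 1 in each direction, next to 1.67% of all genes higher and 2.03% lower. Without replicate 1, 6 of 16 were positive, next to 33.5% of all genes.

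Among genes of fat and glucose use, 2 targets of PPARα had lower means. Angptl4, an inhibitor of lipoprotein lipase and PPARα target, had scores of 2.86, 1.86, 1.96, 1.90 and 2.59, against 2.05 to 3.31 in controls (median 2.72). 3 of 5 lay below every control, and the difference was -0.52 ± 0.212 (SE). Pdk4, which shuts glucose carbon out of the mitochondrial cycle, had scores of 2.06, 1.72, 1.05, 0.989 and 1.85, against 1.68 to 2.19 in controls (median 1.97), a difference of -0.41 ± 0.176, and of -0.82 within the GAPDH limit. These were the 2 of 31 measured PPARα genes with an unadjusted p under 0.05, both lower, next to 2.03% of all genes. The list had 17 positive and 14 negative, with a median of 0.019, next to 47.6% of all genes positive. The desaturase Scd had scores of 4.09, 3.56, 3.16, 2.36 and 3.87, against 2.36 to 4.16 in controls (median 3.71), with a difference of -0.008 ± 0.416, -0.18 without replicate 1 and -0.97 within the GAPDH limit. Of 24 measured genes of fatty acid and triglyceride synthesis, 0 had an unadjusted limma p under 0.05. In the glucose list Pc was 1 of 18 below and Hk2, near the bottom of the scale, 1 of 18 above at that level. Of all genes 2.03% were lower and 1.67% higher at that level. The acute phase, interferon, steroid hormone and thyroid lists had 0 genes at that level in either direction among 20, 21, 21 and 11 measured.

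2 feedback genes of growth hormone signalling had lower means at myclobutanil, with overlapping groups. Cish, an inhibitor induced through STAT5, had scores of 0.955, 0.237, 0.175, 0.021 and 0.139, against 0.012 to 1.46 in controls (median 0.990). Replicate 1 lay near the median of the controls and the lowest control was replicate 7. The difference was -0.59 ± 0.254 (SE), and -0.95 within the GAPDH limit. Socs2, of the same family, had scores of 0.298, 0.142, 0.336, 0.253 and 0.066, against 0.149 to 1.28 in controls (median 0.651), a difference of -0.43 ± 0.172, -0.81 within the GAPDH limit and -0.65 among animals below 3000. All 5 lay below that median and 2 below every control. The prolactin receptor Prlr differed by -0.43 ± 0.192, and by -0.68 among animals below 3000. These were the 3 of 22 measured genes of the growth hormone and sex-biased list with an unadjusted p under 0.05. All 3 were lower, next to 2.03% of all genes, and the list was split at 11 positive and 11 negative. Without replicate 1, 2 of 22 were positive and 5 lower at that level, next to 33.5% of all genes positive and 7.47% lower at that level.

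Onecut1, Slc25a30 and Hhex, with 3 of the 4 largest negative differences among represented genes beside RT1-Bb, were singled out after their values were seen. Onecut1, a hepatocyte transcription factor, had scores of 2.76, 0.270, 1.47, 0.490 and 0.523, against 1.08 to 2.85 in controls (median 2.49). The difference was -1.11 ± 0.387 (SE), -1.53 without replicate 1 and -1.77 within the GAPDH limit. Slc25a30, a mitochondrial carrier, had scores of 2.52, 0.980, 1.24, 0.815 and 0.864, against 1.32 to 3.01 in controls (median 2.62), a difference of -1.03 ± 0.346. Hhex, a homeobox factor of liver, had scores of 4.02, 1.57, 1.74, 1.42 and 2.44, against 2.41 to 3.35 in controls (median 3.08), a difference of -0.75 ± 0.350, -1.19 without replicate 1 and -1.38 within the GAPDH limit. In all 3 genes replicate 1 was the highest myclobutanil array and replicate 7 the lowest control array. Gpm6a, a membrane glycoprotein, went the other way, with scores of 0.880, 0.374, 0.284, 0.383 and 0.788 at myclobutanil, against -0.475 to -0.236 on 6 controls and 1.22 on control 5.

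Early response genes also had lower means at myclobutanil. Dusp1, a phosphatase that ends MAP kinase signals, had scores of 1.59, 1.23, 1.93, 1.17 and 1.71, against 1.76 to 2.35 in controls (median 2.12). 4 of 5 lay below every control, and the difference was -0.58 ± 0.218 (SE). Myc, a growth regulator, and Egr1, an immediate early factor, differed by -0.33 ± 0.142 and -0.39 ± 0.184, and Myc by -0.62 within the GAPDH limit. In the list of 22 measured stress and early response genes 17 were negative and 5 positive, with a median of -0.082. Of all genes 47.6% were positive. In the list 3 had an unadjusted p under 0.05, all lower, next to 2.03% of all genes. Without replicate 1 the count was 7 lower and 1 higher, next to 7.47% of all genes lower and 1.36% higher at that level. In the unfolded protein response list 16 of 22 were negative and 6 positive, next to 47.6% of all genes positive. The glutathione-degrading Chac1 alone was lower at an unadjusted p under 0.05, next to 2.03% of all genes. The clock-related Bhlhe40 and Nfil3 differed by -0.30 ± 0.146 and -0.34 ± 0.188. Within the GAPDH limit they differed by -0.64 and -0.56, and Nfil3 by -0.57 without replicate 1. Cell cycle genes were split at 12 positive and 13 negative.

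The medians of whole lists moved with replicate 1. The 17 hepatocyte markers were all positive with it (median 0.18, none with an unadjusted limma p under 0.05), 9 of 17 positive after quantile normalisation (median 0.001) and 1 of 17 positive without it (median -0.29). The testis germ cell list kept a median near 0.12 to 0.13 under all 3 settings. The lists of stellate cell, biliary, sinusoidal endothelial, lymphocyte, erythroid, adipocyte and pancreas markers had 18, 12, 11, 14, 6, 8 and 10 measured genes. Of these, 2 genes had an unadjusted p under 0.05: the matrix protein Lum, lower, and the pancreatic Cpa1, higher at scores below 0. Of all genes 2.03% were lower and 1.67% higher at that level, so the 2 are not read as a result. The retinoid list had Aldh1a1 alone of 20 at that level.

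**Figure D5:**
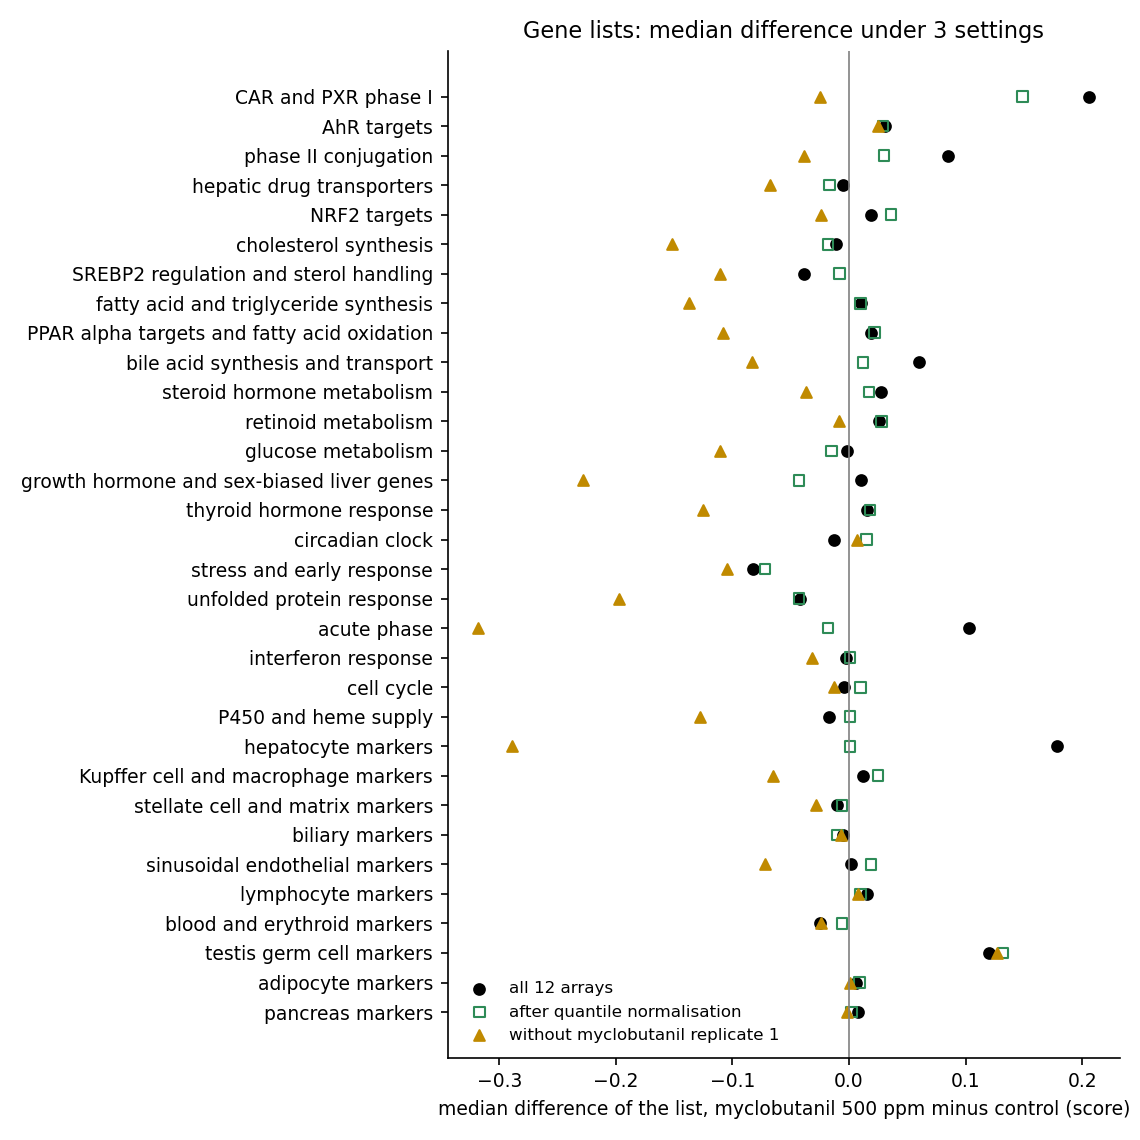
Median difference of each gene list, myclobutanil 500 ppm minus control (x axis, score units), from all 12 arrays (filled circles), after quantile normalisation (open squares) and without myclobutanil replicate 1 (triangles). Hepatocyte and acute phase markers and CAR and PXR phase I genes lie above 0 with all arrays and below 0 without replicate 1, at -0.29, -0.32 and -0.025, and after quantile normalisation they lie at 0.001, -0.018 and 0.15.

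At the same feed level of 500 ppm no probe set passed between myclobutanil and the other 2 fungicides. Against propiconazole and against triadimefon none passed (limma adjusted p under 0.05, 0% of 31042 in each). An unadjusted limma p under 0.05 was found for 1332 (4.29%) and 5934 (19.1%) probe sets. Those 2 counts were 739 and 2306 without myclobutanil replicate 1 and 1004 and 1375 with the 3′–5′ difference as covariate. With each array left out in turn they ran from 598 to 3448, the highest without propiconazole replicate 2, and from 2306 to 8736, the highest without myclobutanil replicate 4. The Cyp2b probe set had a mean of 3.96 ± 0.802 at myclobutanil, 3.99 ± 0.50 at propiconazole (SD, n = 3) and 4.0 ± 0.293 at triadimefon (SD, n = 5). The 95% intervals of the differences, -0.77 to 0.70 against propiconazole and -0.68 to 0.60 against triadimefon, allow a sizeable difference in either direction. Gne had a lower mean at myclobutanil than at either, of 1.31 ± 0.193, against 1.73 ± 0.144 at propiconazole and 1.67 ± 0.148 at triadimefon. Those differences were -0.41 (95% interval -0.74 to -0.08) and -0.36 (-0.645 to -0.07), and neither passed (limma adjusted p = 0.855 and 0.239). Alas1 had a mean above that at triadimefon by 0.52 (95% interval 0.16 to 0.89), a comparison that includes replicate 1.

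Between 500 and 2000 ppm myclobutanil no probe set passed either (0% of 31042), with 3404 (11.0%) at an unadjusted limma p under 0.05. That count was 1098 without myclobutanil 500 ppm replicate 1, 6105 without replicate 4 and 756 with the covariate. Cyp2b had means of 2.51 ± 0.320 at 0 ppm, 3.96 ± 0.802 at 500 ppm and 4.23 ± 0.502 at 2000 ppm. The step between the 2 treated levels was 0.27 (95% interval -0.41 to 0.95). Tle1 had means of 1.13 ± 0.149, 0.660 ± 0.316 and 0.539 ± 0.145 at the same levels, and Angptl4 of 2.75 ± 0.439, 2.23 ± 0.459 and 1.80 ± 0.239. Gne did not follow the level, with 1.89 ± 0.228, 1.31 ± 0.193 and 1.68 ± 0.060. The comparisons with the control at 500 and at 2000 ppm share the same 7 control arrays.

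Several settings changed the count of 0, and those with the largest counts are given here. Weighting the arrays by their spread, which gave myclobutanil replicate 1 a weight of 0.161, called 318 probe sets higher and 1965 lower in limma, and the count returned to 0 when that fit held the 3′–5′ difference as covariate or followed quantile normalisation. Without the arrays above the GAPDH limit, which left 3 in each group, 1 passed as higher, Dock11, and 7 as lower: both probe sets of Onecut2, Rgs3, Gne, Dusp6, Natd1 and Ahctf1. Dusp6, a MAP kinase phosphatase, differed by -1.03 there and by -0.51 over all arrays, and Dock11, an activator of Cdc42, by 0.74 and 0.35.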

How the data were processed

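The deposited table holds a single score per probe set of the Affymetrix Rat Genome 230 2.0 array for 31099 probe sets, made by the authors with a method, scale, log base and normalisation not given in the sources used here. Of 35 sample columns, 3 without values were not used. The 57 control probe sets were kept out, leaving 31042. The platform annotation gave 1 symbol to 20826, several to 436 and none to 9780, and 20758 matched the rat gene table by Entrez identifier. Each of 14217 genes was represented by its brightest probe set.

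All 7 groups entered 1 linear model of the unchanged scores (limma 3.58.1, R 4.3.3, data.table package 1.17.8, lmFit and eBayes defaults), two-sided, with Benjamini-Hochberg adjustment over 31042 probe sets at 0.05. This test had been planned for log2 values, and the deposited scores were used as they stand. Exact permutation tests used scipy 1.17.1 and the promoter alignment biopython 1.88. Spike-in scaling, added after the data had been seen, divided the score above the array median by the slope over bioB, bioC, bioD and cre, taken at the maker's 1.5, 5, 25 and 100 pM. The fit was tested on simulated data with independent probe sets and arrays of equal scale. That test cannot speak to the unequal scale of the real arrays. The number of arrays limits the precision, and replicates of a group differed (correlations 0.949 to 0.991). Members, gene lists, alternatives and naming rules were chosen with earlier results of these data known. Named were the 10 genes of smallest p in each direction, up to 2 of smallest p in each of 32 lists, and a fixed set around Cyp2b and Cyp51. Other genes are marked as seen first or are further list members.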

Additional observations from a re-analysis of the deposited data

Results flagged for a closer look

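Single arrays lay apart from their group in 18 of 186 sets of values checked by Dixon's test of the gap over the range, where chance alone flags about 1 set in 20. 6 of them were myclobutanil replicate 1, for the array measures with a scale of 0.908 score units per doubling of the spike-in transcripts and a highest score of 9.01. Its other values apart were 6.82 for Cyp3a23-3a1, 1.60 for Ces2c, 1.68 for Rgs3 and 0.955 for Cish, each the highest of the 5. Myclobutanil replicate 4 was the lowest of its group for Abcc3 at -0.055.

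Control replicate 7 lay apart as the lowest control at 0.888 for Aldh1a1 and at 0.849 for Rgs3, and as the highest at 0.674 for Amy2a3, a pancreatic amylase, and at 2.72 for Psmb8, a proteasome subunit induced by interferon. Control replicate 3 lay apart as the highest control at 0.182 for Birc7, 0.158 for Cpt1c and 0.113 for Robo1 and as the lowest at 0.459 for Tap1, the peptide transporter of antigen presentation. Control replicate 2 was highest for Pdia4, a chaperone of the endoplasmic reticulum, at 2.88. Control replicate 1 was lowest for Hk2 at -0.306 and control replicate 6 for Adipoq at -0.332, both at the bottom of the scale.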

How the results depend on the processing

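The count of 0 against control held under 22 of 28 alternatives, with 595 to 8765 probe sets at an unadjusted limma p under 0.05. It was 2283 with array weights and 8 without arrays over the GAPDH limit. After quantile normalisation it was 1, also with the 3′–5′ covariate added or without arrays over that limit. The probe set that passed was that of Cyp2b with all arrays. Without arrays over the limit it was Dock11 (difference 0.82, limma adjusted p = 0.00635). Leaving out each replicate gave 0 to 2, the 2 without myclobutanil replicate 1 (Tle1 and an unnamed probe set). Against triadimefon at 500 ppm it was 2 when fitted on those groups alone, and no other alternative moved the counts between treated groups from 0. Cyp2b passed at 1.07 with array weights (limma adjusted p = 0.0321), at 1.36 after quantile normalisation and at 1.35 with the covariate added (limma adjusted p = 0.0051). Over its alternatives on the score scale it ran from 0.94 to 1.60 and the adjusted p from 0.0035 to 1.0.

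Of 31042 probe sets 24 had no overlap, and 39 had none after quantile normalisation. The count was 8 without the dimmest 40%, 161 among animals numbered below 3000 and 2749 without arrays over the GAPDH limit (3 arrays a group). With each replicate left out it ran from 34 to 126, and the 3′–5′ difference from -0.396 to 0.0866. Leaving out arrays cannot lower such a count, because fewer arrays are more easily separated. The higher counts are therefore not read as a result.

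Same-numbered myclobutanil and control arrays deviated with correlations of -0.666, 0.362, 0.527, -0.515 and 0.596, of mixed sign. Whether they share more than a number was not tested. With the number as a replicate block the count was 0 (1253 at an unadjusted p under 0.05), Cyp2b was 1.34 (limma adjusted p = 0.783) and Scd 0.03.

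Of 89 named genes, 66 kept their sign under all alternatives. None of the signs below belongs to a called gene, and the causes were not tested. Signs turned with array weights for Apoc3 (-0.24), Arg1 (-0.22), Cftr (-0.00083), Cyp1a1 (-0.0029), Cyp3a23-3a1 (-0.22), Cyp51 (-0.41), Hsd17b1 (-0.017), Por (-0.11), Slco1a4 (-0.15) and Srxn1 (-0.054). Without arrays over the GAPDH limit they turned for A2m (0.013), Adgre1 (0.00094), Akr1d1 (-0.35), Apoc3 (-0.40), Arg1 (-0.21), Cyp3a23-3a1 (-0.21), Cyp51 (-0.25), Des (0.021), Lyz2 (-0.12), Por (-0.0498) and Rhag (-0.022). With quantile normalisation added they turned for A2m (0.049), Akr1d1 (-0.20), Cyp51 (-0.051), Des (0.016), Lyz2 (-0.0024), Rhag (-0.0198), Scap (0.0053) and Sqle (0.024). Quantile normalisation alone turned Cyp51 (-0.048), with the covariate too (-0.031), and with array weights it turned Cyp51 (-0.14), Hsd17b1 (-0.0042), Pdia4 (0.039), Scd (0.14) and Sqle (0.011). Spike-in scaling turned Apoc3 (-0.12), Arg1 (-0.11), Cyp51 (-0.32) and Por (-0.014), and with the covariate the same genes (-0.12, -0.11, -0.30 and -0.0051). The animal number series as a block turned Adgre1 (0.041), Adipoq (-0.015), Akr1d1 (-0.0018), Por (-0.062) and Rhag (-0.021), and animals below 3000 alone turned Adgre1 (0.029), Akr1d1 (-0.063), Epb42 (0.0011), Por (-0.021) and Rhag (-0.0072). The median over probe sets turned Cyp51 (-0.0059) and Rgs3 (0.0091), and array weights with the covariate turned Scd (0.035). With each replicate left out, the range crossed 0 for Apoc3 (-0.32 to 0.54), Arg1 (-0.22 to 0.40), Cyp3a23-3a1 (-0.24 to 0.53), Cyp51 (-0.36 to 0.19), Lyz2 (-0.0040 to 0.41), Por (-0.083 to 0.16), Rhag (-2e-05 to 0.0301), Scd (-0.18 to 0.26) and Slco1a4 (-0.022 to 0.53). Spike-in scaling and the combinations of 2 settings, apart from quantile normalisation with the covariate, were chosen after seeing the data.

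The number of arrays, their unequal scale and the unstated score limit what can be read. The medians of bright gene lists changed with myclobutanil replicate 1 left out.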
